A study of Mus musculus with 6 samples.

Results

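Secretory inflammatory genes and the NF-kB regulators that act on them were examined for acetylated histone H3 (H3ac) in bone mesenchymal stem cells (MSCs) of young and old mice. The 10 genes are the cytokines Il6 and Lif, the chemokines Ccl2, Ccl7, Cxcl1 and Cxcl5, the matrix proteases Mmp3 and Mmp13, the NF-kB subunit gene Nfkb1 and the NF-kB inhibitor gene Nfkbia. A region belonged to a gene when it overlapped the gene body extended by 5 kb on both sides (GENCODE M21, GRCm38/mm10). This rule took 10 of the 24431 regions in the table, which lay at 8 of the 10 genes. Mmp3 and Mmp13 had no region at all.

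H3ac was measured by CUT&RUN, in which an antibody brings a nuclease to the marked chromatin and the released DNA is sequenced. Young MSCs came from mice aged 3 to 5 months and Old MSCs from mice aged 18 to 22 months, both without treatment. OldAcetate MSCs were of the same older age and were given 5 mM sodium acetate over 3 days, and all groups were grown at 2% oxygen with 10% serum. Each group had 2 libraries, and whether they came from separate mice was not stated in the sources used here, so p-values measure only the spread between these libraries, which may be technical.

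NF-kB is a family of transcription factor dimers that are held in the cytoplasm by inhibitor proteins. Nfkb1 encodes the precursor of the p50 subunit, and Nfkbia encodes IkBa, which binds the dimers until kinases of the IKK complex mark it for destruction. The freed dimers enter the nucleus and bind kappaB sites at the genes of cytokines, chemokines and matrix proteases, and at Nfkbia itself, which restores the brake. Stromal cells of aged tissue are known for releasing many of these factors. Acetylated H3 marks the promoters and enhancers of genes that are open for transcription.

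Library totals ran from 2163351 to 3039481 reads. Between 57.8% and 64.8% of reads fell inside the 24431 regions in Young, compared with 45.9% to 49.9% in Old and, with acetate, 56.3% to 57.3%, and most regions had lower values in Old. Levels are given as RPM, reads scaled to the total of the library, and 1 read was worth 0.329 to 0.462 RPM. Differences between groups are given on the log2(RPM + 0.5) scale, once with RPM as given and once scaled, that is, after subtracting the shift that the median region showed in each library. In bulk material, fewer cells with an acetylated locus and less acetylation per cell cannot be told apart.

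The regions at these genes were long. The 7 regions that led the 8 genes (the region over the gene start or, for Lif, the only region) had a median length of 25.5 kb, and 6 of the 7 were at least 20 kb long. By the same rule, 64.5% of 21951 protein-coding genes had a region, and their leading regions had a median length of 6 kb, with 10.1% reaching 20 kb. The shortest was that of Il6 at 9500 bp and the longest that of Nfkbia at 66500 bp, longer than 99.8% of all regions. Each region name in the table holds a code of letters, read here as the groups in which it was called, and all 7 carried the letters of the 3 groups, as did 80.6% of regions.

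**Figure D1:**
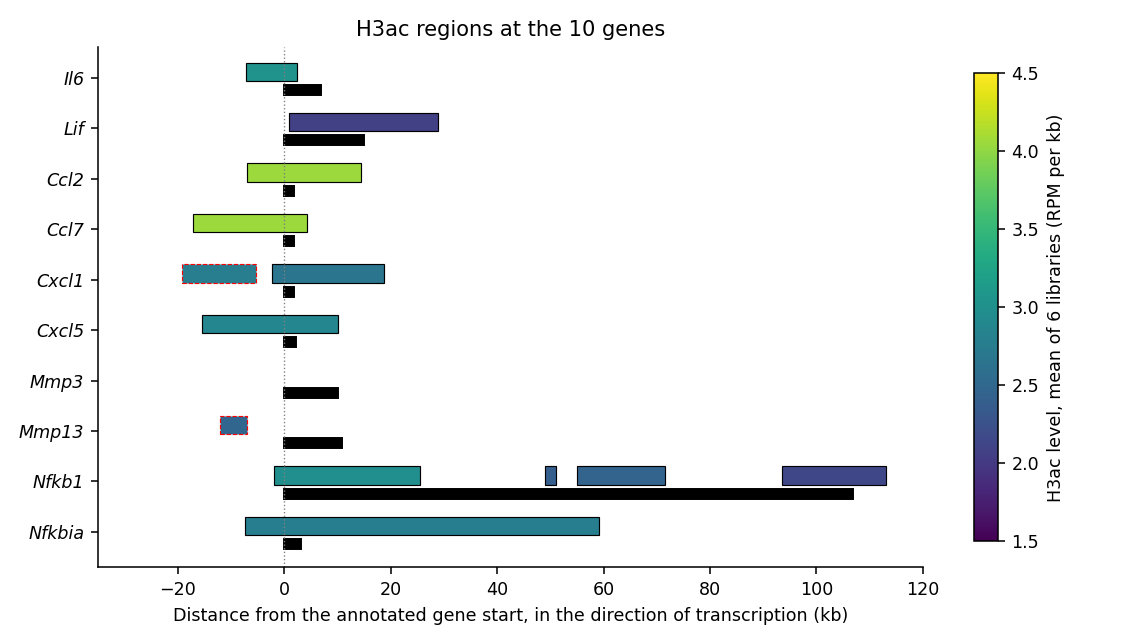
Coloured bars show H3ac regions at each gene and black bars the gene body, by distance in kb from the annotated start in the direction of transcription, and the colour gives the mean level of the 6 libraries in RPM per kb. Dashed red outlines mark the regions upstream of Cxcl1 and Mmp13 that lay beyond 5 kb from the gene body. Ccl2 and Ccl7 share the brightest region, at 4.05 RPM per kb, and no bar reaches Mmp3 or the body of Mmp13.

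The region of Il6, a cytokine of the acute inflammatory response, was chr5:30006001-30015500 and covered the start and 2387 bp of the gene body. The chemokine Cxcl1, which attracts neutrophils, had chr5:90889001-90910000, which also held the start of Cxcl2. The region of Nfkbia was chr12:55433501-55500000 and held the whole gene, and most of this region lay past the 3′ end of the gene. The RefSeq promoters (GRCm38.p6) of these genes lay inside the regions. Their last 250 bases before the start are shown here 5′ to 3′, with matches to the kappaB consensus in capitals.
Il6, chr5:30012864-30013113, plus strand: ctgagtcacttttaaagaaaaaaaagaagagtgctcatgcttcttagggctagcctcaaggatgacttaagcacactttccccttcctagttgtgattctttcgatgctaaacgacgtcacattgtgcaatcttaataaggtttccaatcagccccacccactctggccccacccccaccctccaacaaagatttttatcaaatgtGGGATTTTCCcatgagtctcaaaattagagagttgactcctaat
Cxcl1, chr5:90890995-90891244, plus strand: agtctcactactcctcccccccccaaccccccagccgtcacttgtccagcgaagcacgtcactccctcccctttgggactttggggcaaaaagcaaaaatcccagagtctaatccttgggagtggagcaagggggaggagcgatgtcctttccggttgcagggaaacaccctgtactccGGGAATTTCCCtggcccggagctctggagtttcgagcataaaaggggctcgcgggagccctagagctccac
Nfkbia, chr12:55492648-55492897, minus strand: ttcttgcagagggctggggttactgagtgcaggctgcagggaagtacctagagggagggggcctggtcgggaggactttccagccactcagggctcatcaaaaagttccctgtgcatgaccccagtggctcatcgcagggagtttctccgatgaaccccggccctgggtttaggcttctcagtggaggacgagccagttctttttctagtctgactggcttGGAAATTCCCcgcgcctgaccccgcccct

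The capitals are matches to the kappaB consensus on either strand. The match in Il6, GGGATTTTCC, began 44 bases before the start, and that in Nfkbia, GGAAATTCCC, began 29 bases before it. Cxcl1 held overlapping matches on both strands, beginning 71 and 70 bases before the start. Of 32851 promoter windows of this length, 7.25% held the consensus. RefSeq promoters were matched for 6 of the 10 genes, and those of Ccl2, Ccl7, Cxcl5 and Nfkb1 were not used here. Among the 6, the consensus was also found in Lif and not in Mmp3 or Mmp13. The AP-1 motif TGANTCA, present in 6.75% of windows, was found in Il6, Lif, Mmp3 and Mmp13, beginning 46 bases before the start of Mmp3 and 35 bases before that of Mmp13. The C/EBP motif TTGCNNAA, in 9.56% of windows, was found in Il6 and Mmp3. These are matches of letters and say nothing of binding.

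Levels between genes were compared per kb of region, as the mean over the 6 libraries. The shared region of Ccl2 and Ccl7 stood first at 4.05 RPM per kb, above 94.1% of all regions, and it was above the next, Il6 at 3.04, in 6 of 6 libraries. Il6 exceeded Nfkb1 (2.99) in 3 of 6 libraries, Nfkb1 exceeded Cxcl5 (2.88) in 4, Cxcl5 exceeded Nfkbia (2.77) in 5, and Nfkbia exceeded Cxcl1 (2.66) in 3, so the order in the middle was within the spread between libraries. Lif stood last at 2.08, below Cxcl1 in 6 of 6 libraries and above only 10.7% of all regions. The median over all regions was 2.70 RPM per kb. Over the leading regions of all protein-coding genes it was 3.03, and 5 of the 7 lay below it, with Il6 barely and the region of Ccl2 and Ccl7 well above it. Of those leading regions, 10.8% exceeded the region of Ccl2 and Ccl7.

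Il6 had 28.0 and 31.9 RPM in the Young libraries, 22.2 and 25.9 in the Old libraries and 39.0 and 26.7 in the OldAcetate libraries (replicates 1 and 2, as throughout). Both Old libraries were below both Young libraries, and the OldAcetate libraries lay on both sides of the Young ones. These values rest on 48 to 116 reads per library. Relative to the median region, Old differed from Young by 0.04 (95% interval -0.33 to 0.41) and OldAcetate from Old by 0.18 (-0.19 to 0.56), or -0.07 without OldAcetate replicate 1.

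Lif encodes a cytokine of the Il6 family that signals through Lifr. Its region, chr11:4258501-4286500, began 944 bp inside the annotated gene start and covered the start of 1 of its 2 protein-coding transcripts. Lif had 64.8 and 62.5 RPM in Young compared with 51.3 and 53.7 in Old and, with acetate, 59.1 and 57.6. As given, the 3 groups did not overlap at this gene, with Young highest and Old lowest. Among all regions, 60.2% were lower in Old than in Young without overlap. OldAcetate was higher than Old without overlap at 47.1%, and lower than Young at 29.8%. Old was at 82.5% of Young and OldAcetate at 111% of Old. After scaling, the differences were 0.07 (-0.18 to 0.33) for Old vs Young and -0.09 (-0.34 to 0.17) for OldAcetate vs Old.

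Ccl2 and Ccl7, neighbouring genes whose products attract monocytes, lay in a single region, chr11:82028501-82050000, so their H3ac cannot be told apart. The region also held the start of Gm17268. It had 103 and 98.0 RPM in Young, against 82.7 and 60.1 in Old, while the OldAcetate libraries had 89.7 and 88.4. As given, all 3 groups were separate here too, in the same order as at Lif, and the Old libraries differed most from each other. After scaling, Old overlapped both other groups here and at Lif. The share of all regions with this order was not counted. Old was at 70.9% of Young. With the values as given, the difference of -0.51 ± 0.14 (SE) was among those limma called (adjusted p = 0.0191), but relative to the median region it was -0.16 (-0.38 to 0.06) and was not called (limma, adjusted p = 0.91). OldAcetate vs Old was 0.10 after scaling (-0.12 to 0.32).

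The acetylated block at Ccl2 and Ccl7 stopped short of most of the chemokine cluster downstream. Of 6 CC chemokine genes of the cluster, named after their values were seen, only Ccl2 and Ccl7 had their start in a region, as did 54.1% of all protein-coding genes. By the 5 kb rule 4 of the 6 had a region, Ccl11 and Ccl1 as well, beside 64.5% of protein-coding genes. The starts of Ccl11, Ccl12, Ccl8 and Ccl1 lay 7823, 26845, 21316 and 2812 bp from the nearest one. The regions nearest to Ccl12, Ccl8 and Ccl1 had 11.7 to 16.7 RPM on average and did not carry the letters of all 3 groups in their names. Per kb they had 1.86, 2.60 and 1.84 RPM, beside 4.05 at Ccl2 and Ccl7 and a median of 2.70 over all regions. At the CXC cluster on chromosome 5, chosen in the same way, 5 of 7 genes had their start in a region, namely Cxcl5, Ppbp, Cxcl3, Cxcl1 and Cxcl2. By the 5 kb rule 7 of 7 had a region. Cxcl3 was the weakest of these at 1.75 RPM per kb.

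Cxcl1 had 65.8 and 56.0 RPM in Young compared with 59.2 and 41.4 in Old and, with acetate, 58.1 and 55.1. Old replicate 1 lay inside the Young range, so these groups overlapped, as did OldAcetate with each of the others. The differences after scaling were 0.06 (-0.21 to 0.32) for Old vs Young and -0.05 (-0.31 to 0.22) for OldAcetate vs Old. The region upstream of Cxcl1, 5241 bp from its start with 38.7 RPM on average, fell just outside the rule, and the closest region inside it lay over the start itself.

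Cxcl5, another neutrophil attractant, shared chr5:90744001-90769500 with the start of Ppbp. It had 84.9 and 75.2 RPM in Young, against 73.5 and 59.3 in Old, while the OldAcetate libraries had 70.6 and 76.7. Both Old libraries lay below both Young libraries, and OldAcetate overlapped both other groups. After scaling, Old differed from Young by 0.08 (-0.15 to 0.31) and OldAcetate from Old by -0.08 (-0.31 to 0.15).

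Mmp3 (stromelysin) and Mmp13 (collagenase), which cut matrix proteins, had no region. The nearest region lay 148179 bp from the start of Mmp3. For Mmp13 it was chr9:7260501-7265500, 7014 bp upstream with 12.5 RPM on average. The table held no region over 328.5 kb between this one and chr9:7594001, a stretch with 7 protein-coding genes, all of the Mmp family: Mmp13, Mmp12, Mmp1b, Mmp3, Mmp10, Mmp8 and Mmp27. None of 9 Mmp genes of the cluster, which adds Mmp20 and Mmp7 and was chosen after the values were seen, had its start in a region, against 54.1% of protein-coding genes in the table as a whole. Since the table lists only called regions, H3ac below the calling limit at these genes could not be measured.

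**Figure D2:**
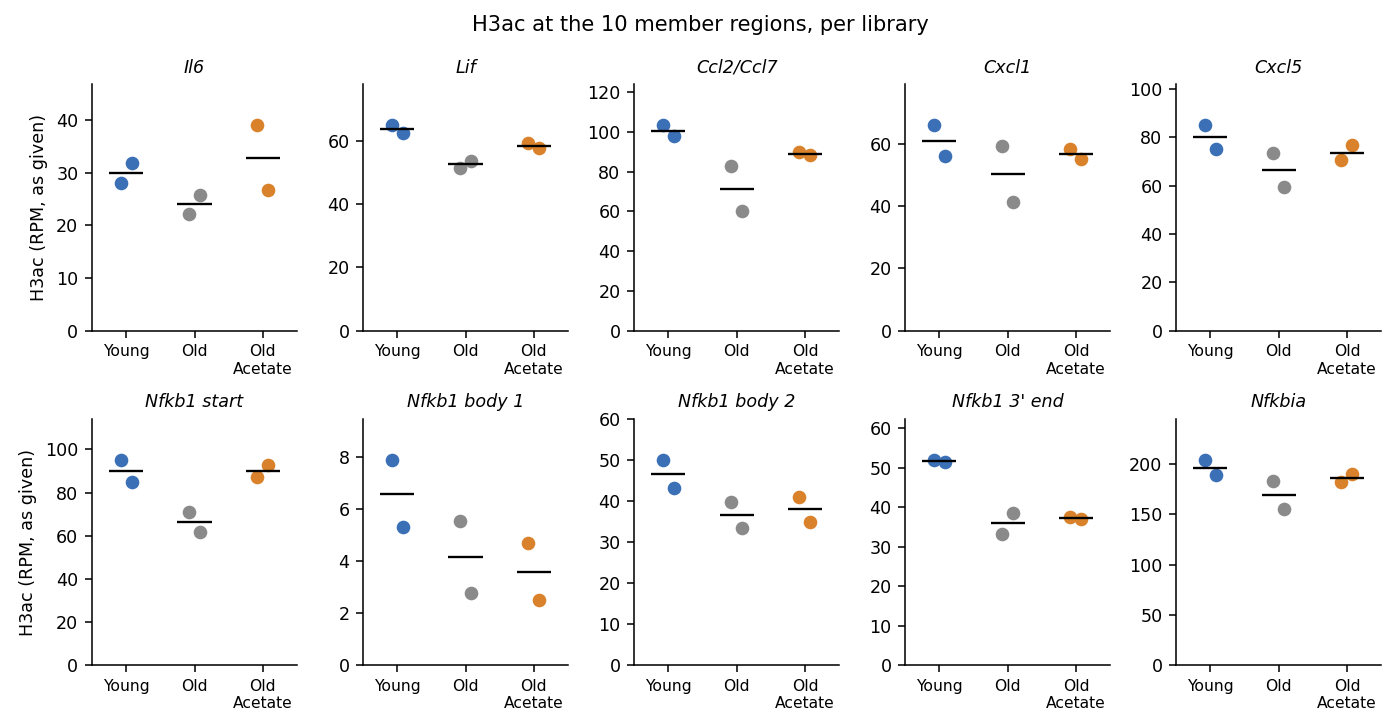
RPM as given of each of the 10 regions, with 1 point per library and a black line at the mean of the 2 libraries of a group. The mean of Old is the lowest at every region except the short Nfkb1 region, where that of OldAcetate is lower. At the Nfkb1 3′ end both OldAcetate libraries lie beside Old at 37.6 and 37.1 RPM.

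Nfkb1, 106893 bp long and on the minus strand, had 4 regions. The region over its start, chr3:135666001-135693500, had 95.1 and 85.0 RPM in Young compared with 71.2 and 61.6 in Old and, with acetate, 87.0 and 93.0. Old was separate from and below both other groups, which overlapped and had equal means of 90.0 RPM. As given, the start region was lower in Old than in Young by a log2 difference of -0.44 ± 0.14 (SE; limma, adjusted p = 0.0372), and higher in OldAcetate than in Old by 0.44 ± 0.14, which was not called (limma, adjusted p = 0.11). Relative to the median region these differences were -0.09 (-0.30 to 0.13) and 0.20 (-0.02 to 0.42).

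At the 3′ end of Nfkb1, chr3:135578501-135598000 had 52.0 and 51.5 RPM in Young, against 33.3 and 38.6 in Old, while the OldAcetate libraries had 37.6 and 37.1. Here OldAcetate stayed within the range of Old, and both were well below Young. Old vs Young was -0.52 ± 0.17 (SE) as given (limma, adjusted p = 0.0409) and -0.17 (-0.47 to 0.13) after scaling. OldAcetate vs Young was -0.46 as given (limma, adjusted p = 0.76) and -0.35 (-0.65 to -0.05) after scaling, the only one of the 30 scaled differences of these regions with an unadjusted p under 0.05 (limma, adjusted p = 0.96).

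Between them lay chr3:135620001-135636500, with 50.0 and 43.3 RPM in Young, 39.8 and 33.4 for the Old libraries and 41.0 and 35.0 for OldAcetate, and a short region of 2000 bp that carried only the letter of Young in its name. The latter held 24 and 13 reads in the Young libraries, 12 and 7 in those of Old and 14 and 6 in those of OldAcetate, too few for a difference to be read (Old vs Young -0.30 after scaling, -1.19 to 0.60).

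The start of Nfkb1 and the rest of the gene were therefore set against each other within each library, as the ratio of the start region to the sum of the other 3. The ratio does not depend on the scaling. It was chosen after the values were seen, so its test below gives no support of its own. The Young libraries gave 0.865 and 0.849, the Old libraries 0.906 and 0.824 and the OldAcetate libraries 1.04 and 1.25. Both OldAcetate libraries were above all 4 others. How often other genes with several regions show such a separation was not counted, so it cannot be called particular to Nfkb1. The mean was 0.280 higher in OldAcetate than in Old and 0.288 higher than in Young (exact two-sided permutation p = 0.333 for each, the smallest that 2 libraries against 2 allow), and Old differed from Young by 0.00805 (exact permutation p = 1). Without OldAcetate replicate 2, the differences were 0.179 and 0.187.

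**Figure D3:**
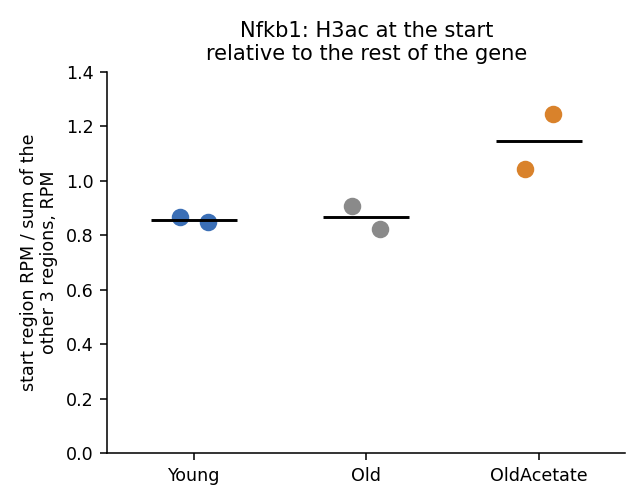
H3ac of the Nfkb1 start region divided by the sum of the other 3 Nfkb1 regions, 1 point per library, with a line at the group mean. The OldAcetate libraries, at 1.04 and 1.25, lie above the 4 Young and Old libraries, which run from 0.824 to 0.906.

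Nfkbia had 204 and 189 RPM in Young compared with 184 and 155 in Old and, with acetate, 182 and 191, the most of the 10 regions. Old lay below Young, and OldAcetate overlapped both. As given, Old was at 86.1% of Young, the smallest fall of the 10 (log2 difference -0.22, -0.44 to 0.00017; limma, adjusted p = 0.16), and relative to the median region it was higher by 0.13 (-0.02 to 0.28; limma, adjusted p = 0.90). OldAcetate vs Old was -0.09 after scaling (-0.25 to 0.06). With 390 to 620 reads per library, this was the most precisely measured of the regions.

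Old vs Young asks how H3ac differs with age. As given, all 10 regions had a lower mean in Old, with a median log2 difference of -0.33 beside -0.35 over all 24431 regions. The groups did not overlap at 8 of the 10, with Cxcl1 and the short Nfkb1 region as the exceptions, and among all regions 60.2% were lower in Old without overlap. By limma, 3 of the 10 were called lower, that of Ccl2 and Ccl7 and the start and 3′ end of Nfkb1, where 9.5% of all regions were. These 3 regions were 19500 to 27500 bp long, beside a table median of 5500 bp, so the shares are not like for like. All 3 calls were lost (0 of 10) when Young replicate 1, Old replicate 2 or OldAcetate replicate 1 was left out, 2 were called without Young replicate 2 and 1 without OldAcetate replicate 2. After scaling, limma called 0 of 10, and 0 had an unadjusted p under 0.05, with the same counts by edgeR (0.00819% of all regions were called by limma). The scaled median was 0.02, with 6 regions positive and 4 negative.

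OldAcetate vs Old asks what acetate changes in old cells. It shares the Old libraries with the first comparison, so opposite signs in these comparisons are not independent. As given, 9 of 10 regions had a positive difference, the short Nfkb1 region being the exception, with a median of 0.15 beside 0.24 over all regions. OldAcetate was higher without overlap at 4 of the 10, those of Il6, Lif, Ccl2 and Ccl7, and the Nfkb1 start, and at 47.1% of all regions. By limma, 0 of 10 were called as given, where 0.311% of all regions were called higher, and 3 had an unadjusted p under 0.05. After scaling, 0 of 10 were called (0% of all regions) and 0 had an unadjusted p under 0.05, with a median of -0.09. By edgeR the counts of calls were also 0.

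OldAcetate vs Young asks how the treated old cells stood to young ones. As given, the median was -0.12 beside -0.11 over all regions, and the differences were negative at 8 regions and positive at Il6 and, by 0.0015 on the log2 scale, at the Nfkb1 start. OldAcetate was lower without overlap at 5 of the 10, those of Lif, Ccl2 and Ccl7, and the 3 regions of Nfkb1 away from its start, where 29.8% of all regions were. By limma and by edgeR, 0 of 10 were called with or without scaling (limma called 0% of all regions lower as given), with 1 at an unadjusted p under 0.05 by each tool. In limma this was the Nfkb1 3′ end. The scaled median was -0.01.

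**Figure D4:**
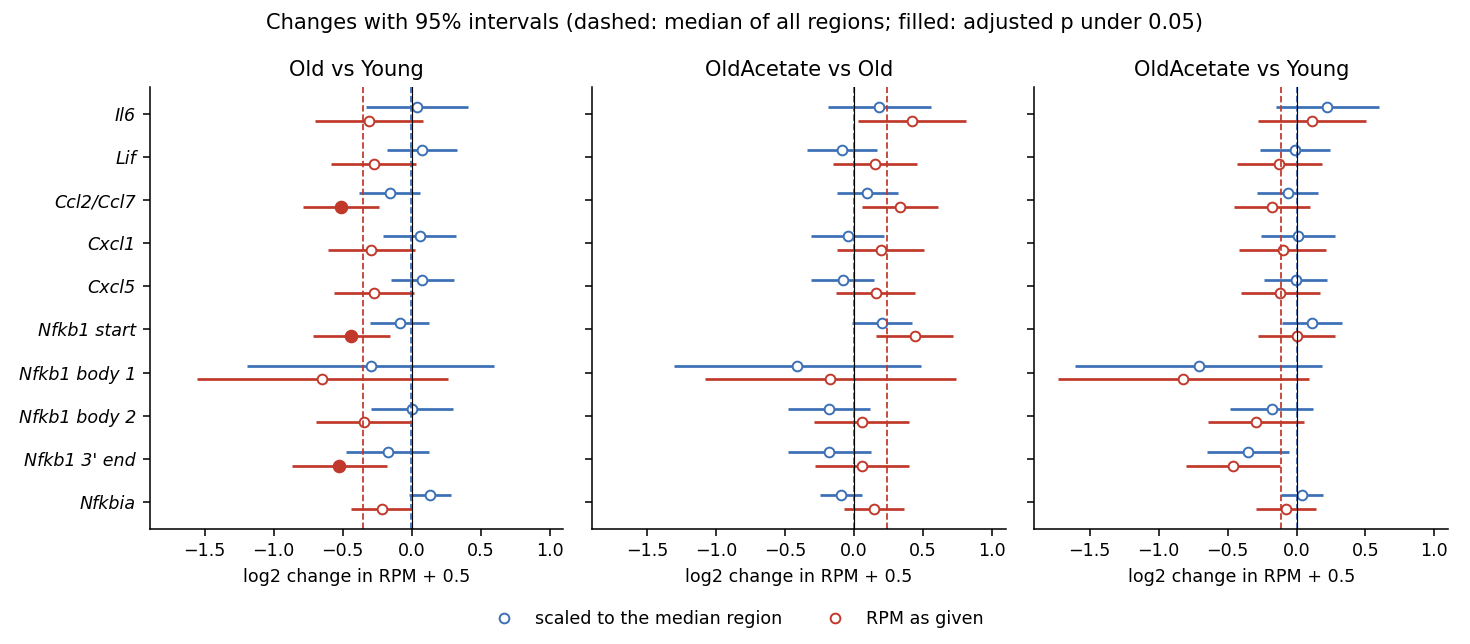
Log2 differences of the 10 regions in the 3 comparisons, with bars for the 95% intervals of limma, in blue after scaling and in red with RPM as given. Dashed lines give the median of all 24431 regions, and filled points, which occur only for 3 as-given differences of Old vs Young, have an adjusted p under 0.05. The red points of Old vs Young lie around the red line at -0.35.

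Summed over the 10 regions, the Young libraries had 756 and 698 RPM, the Old libraries 622 and 532 and the OldAcetate libraries 669 and 663. As a share of the reads in all regions this was 0.117% and 0.121% for Young, 0.125% and 0.116% for Old and 0.117% and 0.118% for OldAcetate. The sums of the 3 groups did not overlap, whereas the shares did, with Old spanning the values of the other groups.

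The wider pathway was covered by 6 lists with 88 other genes, of which 69 (78.4%) had a region. All 4 other subunit genes had one (Rela, Relb, Rel and Nfkb2), as did all 10 inhibitors and feedback regulators, 15 of 16 genes of the IKK complex and upstream signalling, and 14 of 17 receptors. Of 25 other secreted factors, only 14 did. Those without a region were Tnf, Il1b, Il33, Osm, Ccl3, Ccl4, Ccl8, Ccl12, Ccl20, Csf2 and Csf3. Il11, Il1rn, Cxcl2, Cxcl3, Cxcl12, Cxcl16, Csf1, Ptgs2 and Cx3cl1 had a region over their start, and Il1a, Cxcl9, Cxcl10, Ccl5 and Ccl11 had regions that did not reach it. Among 16 matrix proteases and inhibitors, Mmp8, Mmp9, Mmp10 and Mmp12 had none.

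These genes had 108 regions apart from those already described. After scaling, limma called 0 of 108 in each comparison, with 7, 6 and 9 at an unadjusted p under 0.05 in Old vs Young, OldAcetate vs Old and OldAcetate vs Young (6.48%, 5.56% and 8.33%, beside 5.54%, 6.24% and 5.08% of all regions), and medians of 0.02, 0.05 and 0.03. The lowest p in Old vs Young was at Map3k7, which encodes the kinase TAK1 upstream of IKK, with a difference of 0.75 (0.36 to 1.15; limma, adjusted p = 0.46). Tnip1, an inhibitor of the pathway, had 0.33 and Mmp2, a gelatinase, had 0.23. In OldAcetate vs Old the lowest p were at the subunit genes Rel (0.52; limma, adjusted p = 0.71) and Rela (-0.71) and at the aggrecanase gene Adamts5 (0.36). In OldAcetate vs Young they were at Map3k7 (0.65), Adamts5 (0.37) and Il1rn, the Il1 receptor antagonist (-0.57; limma, adjusted p = 0.96).

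With the values as given, 16 of the 108 were called lower in Old than in Young by limma, where 9.5% of all regions were, and 0 higher, with a median of -0.33. They were 1 of 7 subunit regions (Rel, -0.62), 1 of 14 of inhibitors (N4bp1, -0.53), 4 of 28 of upstream signalling (Map3k14, Traf3, a region inside Ikbkb and another past its body that lay over the start of Polb), 3 of 29 of receptors (Tnfrsf1a, a region inside Lifr and another outside its body) and 1 of 16 of other secreted factors (Cx3cl1, -0.47). The matrix proteases and inhibitors had 6 of 14, among them Mmp14 (-0.50), Plat (-0.54), Adamts4, Timp2 and Timp3. These 6 regions were 14000 to 65000 bp long, beside a table median of 5500 bp. No region of the lists was called in the other comparisons as given.

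Markers of the cells were read by the same rule. All 10 stromal markers, among them Pdgfra, Ly6a and Thy1, had a region over their start. Of 10 macrophage and blood cell markers, 6 had a region. It covered the start at Csf1r, Spi1, Fcer1g, Cd14 and Cd68, the last of these in a region that also held the starts of Mpdu1 and Eif4a1, and not at Tyrobp, while Ptprc, Adgre1, Itgam and Lyz2 had none. Of 7 endothelial markers, 4 had a region, over the start at Erg and away from it at Pecam1, Kdr and Tie1, and Cdh5, Tek and Emcn had none. Eng, planned for both the stromal and the endothelial list, was counted only as stromal and had a region over its start. The summed level of the macrophage and blood list ran from 224 to 267 RPM in Young, 183 to 188 in Old and 221 to 224 in OldAcetate, that of the endothelial list from 145 to 168, 106 to 125 and 132 to 139, and that of the stromal list from 971 to 1097, 777 to 810 and 978 to 1009. All 3 sums were lowest in Old, like the share of reads in regions, and their part in the differences as given was not tested.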

How the data were processed

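H3ac was profiled in 6 CUT&RUN libraries of 3 groups, assigned from the sample titles. The authors deposited a table of RPM, named as RPKM but not divided by length, for regions called jointly, and all 6 of its columns were used. In each column 100% of values were whole multiples of the value of 1 read (tolerance 0.01), so reads and library totals were recovered. The submitters' processing notes name Bowtie2, Picard and mm10. Whether the added yeast DNA was used for scaling is not given in the sources used here. The design had assumed RPKM.

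limma 3.58.1 (R 4.3.3) was fitted to log2(RPM + 0.5), which understates changes of low regions, as 3 group means over the 6 libraries, with eBayes trend and robust. The Benjamini-Hochberg adjustment ran over all 24431 regions at 0.05. The fit was run with each library's median deviation subtracted (scaled) and with RPM as given, and was tested on simulated data. edgeR 4.0.16 on the recovered reads was an alternative. Others were pseudocounts of 0.1 and 1, quantile normalization, leaving out the lowest 25% of regions, a threshold of 0.01, only the compared libraries, a replicate block, eBayes without trend and robust, other gene extensions, and leaving out each library. Ratios were tested with exact two-sided permutation tests. All 10 members are named with all their regions. From the pathway lists, called regions and, per comparison, the 3 leading regions with the lowest p are named. Of the regions taken by this rule, 1 is not reported here. The members and lists were chosen with earlier results of these data known. Replicate numbers were not used as a pairing in the main fit. Figures were drawn with matplotlib 3.10.9.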

Additional observations from a re-analysis of the deposited data

How the results depend on the processing

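None of the scaled differences of the leading regions was called, and 18 of 21 turned sign under at least 1 alternative. Without scaling, or by edgeR without factors, the calls over all regions were 2327 and 2524 in Old vs Young, beside 2 as reported, and 76 and 21 in OldAcetate vs Old, beside 0. Of the 10 regions at the inflammatory and NF-kB genes, 3 and 3 were then called in Old vs Young, and their median differences were -0.33 and -0.33, 0.15 and 0.15, and -0.12 and -0.13 in the 3 comparisons. These alternatives keep the shift that scaling removes. Under them the sign turned at Il6 (-0.31 and -0.30), Cxcl5 (-0.27 and -0.28), Cxcl1 (-0.29 and -0.30), Lif (-0.28 and -0.28) and Nfkbia (-0.22 and -0.22) in Old vs Young. It also turned at Cxcl5 (0.16 and 0.15), Cxcl1 (0.19 and 0.19), Lif (0.15 and 0.15) and Nfkbia (0.14 and 0.14) in OldAcetate vs Old. In OldAcetate vs Young it turned at Cxcl1 (-0.10 and -0.11), Nfkbia (-0.075 and -0.078) and, by edgeR without factors, the Nfkb1 start (-0.0063).

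Over all regions, Old vs Young gave 5 calls with quantile normalization and 5 by edgeR with factors, 1 at a threshold of 0.01, 1 with only the 4 compared libraries and 0 without trend and robust, and OldAcetate vs Old gave 2 with quantile normalization and 2 with the 4 libraries. The 3 calls as given fell to 0 at 0.01, 1 with the 4 libraries and 0 without trend and robust. For these the cause was not tested.

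Leaving out single libraries gave 0 to 9 calls over all regions in Old vs Young, 0 to 3 in OldAcetate vs Old and 0 to 4 in OldAcetate vs Young, and 0 to 3 of the 10 regions as given. The scaled median of the 10 ran from -0.039 to 0.036 in Old vs Young and from -0.11 to -0.011 in OldAcetate vs Old. In Old vs Young, Il6 ran from -0.14 to 0.21, Cxcl5 from -0.016 to 0.17, Cxcl1 from -0.14 to 0.25, Lif from -0.019 to 0.17, and Ccl2 and Ccl7 from -0.33 to 0.0083. In OldAcetate vs Old, Il6 ran from -0.072 to 0.44, Cxcl5 from -0.17 to 0.011, Cxcl1 from -0.24 to 0.15, Lif from -0.18 to 0.0072, and Ccl2 and Ccl7 from -0.071 to 0.27. In OldAcetate vs Young, Il6 ran from -0.034 to 0.48, Cxcl5 from -0.078 to 0.067, Cxcl1 from -0.022 to 0.047, Lif from -0.067 to 0.043 and Nfkbia from -0.0060 to 0.081. The sign held in the others: the Nfkb1 start ran from -0.13 to -0.045, 0.14 to 0.26 and 0.054 to 0.17 in the 3 comparisons, Nfkbia from 0.072 to 0.19 in Old vs Young and -0.15 to -0.034 in OldAcetate vs Old, and Ccl2 and Ccl7 from -0.11 to -0.019 in OldAcetate vs Young.

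After scaling, the differences between replicates 1 and 2 were hardly correlated between groups (0.00928, -0.0344 and -0.0426). The shift that scaling removed was higher in replicate 1 of each group (0.243 and 0.0817 in Young, -0.128 and -0.248 in Old, 0.0622 and 0.0393 in OldAcetate). These correlations leave that shift out, so they cannot decide whether the numbers pair the libraries. With the replicate number as a block, 0 of 10 regions were called after scaling and 3 as given in Old vs Young, as without it. As given, 7 of the 10 then had an unadjusted p under 0.05 (limma), against 4 without the block. Other pseudocounts, the filter on low regions and other gene extensions changed no call at the 10 regions. The 95% intervals hold the differences compatible with these values, with 2 libraries per group at this depth.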
